A study of Mus musculus with 6 samples.

Results

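Selenoproteins are proteins that carry selenocysteine, an amino acid with selenium in the place of the sulphur of cysteine. The genes described here are the selenoproteins outside the glutathione peroxidase (GPX) and thioredoxin reductase (TXNRD) families, with factors that make or insert selenocysteine. They were chosen by gene symbol from a list of 8 older mouse symbols, and all 8 were found among the 16472 genes of the authors' deposited table. These are Sepp1, Selm, Selt, Selk, Sepn1, Sepw1, Sephs2 and Secisbp2. The list was proposed with the fold changes of this comparison in view, so their values are given as a description.

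The study compared 6 mRNA libraries of HT22 cells, 3 from cultures treated with AA147 and 3 from cultures given DMSO as vehicle, each for 16 h. HT22 is an immortalised mouse hippocampal line, here 1 line with no genetic change named in the labels, and the labels give 10 mM as the AA147 concentration, a unit that could not be checked here and may be a misprint for a lower one. AA147 is a compound known to switch on ATF6, a sensor of misfolded protein in the endoplasmic reticulum (ER) and part of the unfolded protein response, and NRF2, a regulator of the response to oxidative stress. The authors' deposited table has 1 line per gene for this comparison, with a mean over the libraries, a log2 fold change and its standard error (SE), and no value per library was analysed here. The table does not name the numerator of its fold changes; positive values are taken to mean more transcript with AA147, and all directions below depend on that. Nothing in the labels says whether the 3 libraries of a group came from separate cultures, so the p-values may measure technical spread only.

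Selenocysteine is encoded by UGA, a codon that otherwise ends translation. It is read as selenocysteine only where the message carries a hairpin called SECIS in its 3′ untranslated region. Secisbp2 binds that hairpin and recruits the elongation factor Eefsec with the selenocysteine tRNA. The selenium donor for this tRNA is selenophosphate, made by Sephs2, which is itself a selenoprotein. Many selenoproteins are enzymes of thiol and peroxide chemistry. Several of those described here sit in the ER, and Sepp1 is secreted and carries selenium between tissues, with the brain as a well-known recipient.

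The codon that defines these genes was read from the GENCODE release M39 transcripts, in the canonical coding sequence of each gene. An in-frame TGA, the DNA form of UGA, was present in 7 of the 8 genes, and Secisbp2, which is a factor and no selenoprotein, had 0. Each window below is a stretch of coding sequence around 1 such codon, cut at the end of the coding sequence, and is shown because this codon is what the 7 genes share. Capitals mark the in-frame TGA and, where it stands 3 codons earlier, a cysteine codon.
Sepw1: gtgtatTGTggagctTGAggctataagccc
Selm: gagaccTGTggaggaTGAcagttgaatcgc
Selt: cagattTGTgtatccTGAgggtaccggcgg
Sepn1: gacgaccagtcctgcTGAggttccgggcgg
Sephs2: tccggcatgaagggcTGAggctgcaaggtc
Selk: ccaatggctggtggaTGAggaagg
Sepp1, first: cttcttcaagccagcTGAtacttgtgtctt
Sepp1, eighth: aaccccaactgaagcTGAgataatcagacc

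The windows of Sepw1, Selm and Selt share a layout, a TGT cysteine codon 3 codons before the TGA, which is the gene form of the CxxU redox motif of thioredoxin-like selenoproteins. The other 4 genes lacked a cysteine codon at that place. Sepp1 stood apart by number, with 10 in-frame TGA codons, while the other 6 genes had 1 each. The first of the 10 was codon 59 of 380, and the other 9 lay between codons 259 and 377. In the eighth Sepp1 window, the lower-case tga that ends 3 bases before the capitals is the seventh such codon. Selk carried its TGA at codon 92 of 94, near the end of the protein, and Sepw1 at codon 13 of 88.

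**Figure D1:**
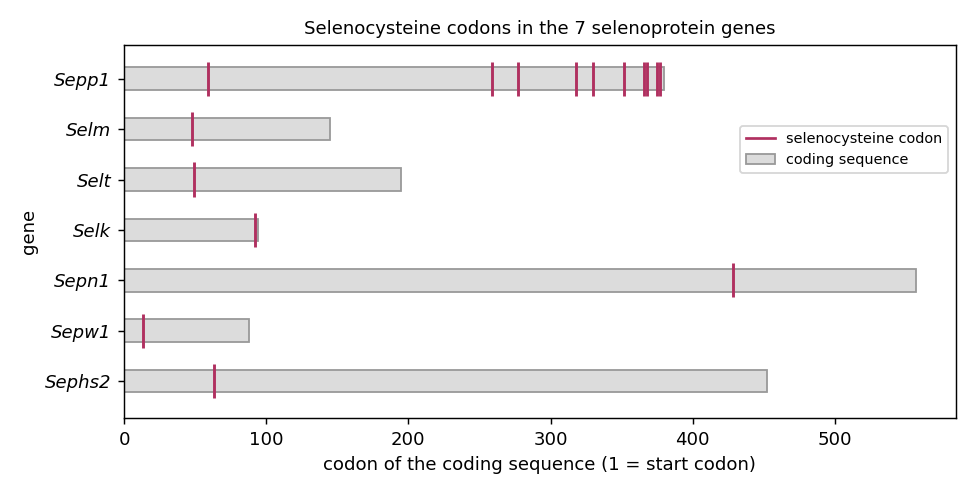
Selenocysteine codons in the coding sequence of the 7 selenoprotein genes, with the codon number on the x axis and 1 gene per row. Grey bars are coding sequences drawn to scale and vertical lines are in-frame TGA codons: Sepp1 has 10, of which 9 lie in the last part of its coding sequence, and the other genes have 1 each.

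Among the 8 genes, Sepp1, Selm and Sephs2 fell and Selt rose with AA147, and Selk, Sepn1, Sepw1 and Secisbp2 did not pass the test. The authors' deposited table thus called 4 of the 8 at an adjusted p under 0.05, where 20.2% of the 13597 genes with an adjusted p were called. Negative calls were 3, against 11.1% of those genes, and positive calls 1, against 9.05%, in the authors' deposited table. Nothing is read from these shares, since the genes were proposed with this comparison in view. From the authors' deposited table, the 8 log2 fold changes had a median of -0.13, beside 0.01 over all genes with an adjusted p. The changes were small, and 1 of the 8 exceeded 0.5 in size on the log2 scale.

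**Figure D2:**
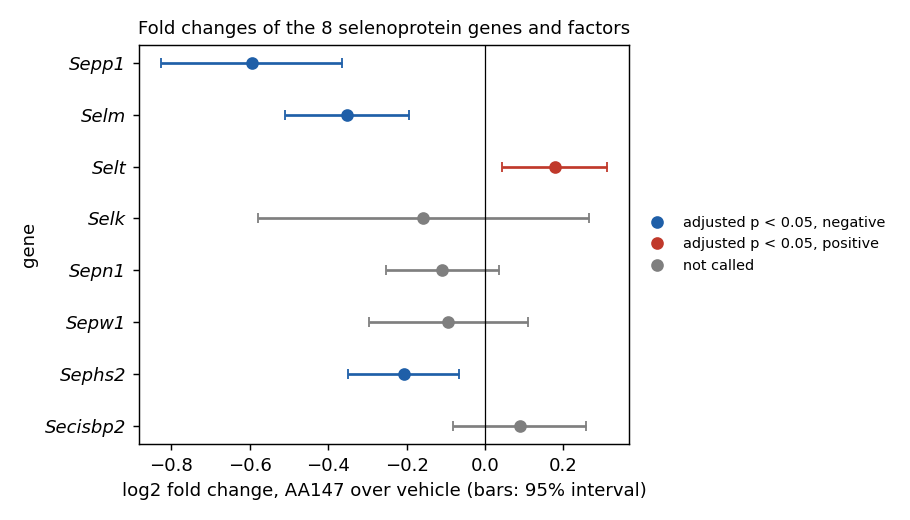
Log2 fold change (AA147 over vehicle, x axis) of each of the 8 genes in the authors' deposited table, with bars for the 95% interval from the authors' SE. Sepp1, Selm and Sephs2 (blue) lie below 0, Selt (red) lies above it, and the intervals of the 4 genes in grey include 0.

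Sepp1, the secreted selenium carrier, had the largest change. Its mean in the authors' deposited table was 525 normalized counts, and its log2 fold change was -0.59 (adjusted p 9.36e-06, SE 0.12). The AA147 level was 0.662 times the vehicle level, with a 95% interval from 0.564 to 0.777. Taken at face value, the authors' mean and fold change imply an average of 632 normalized counts in vehicle and 419 in AA147. The authors' deposited table lists 10633 genes with a mean of 100 or more, and 2.7% of these had a lower log2 fold change. Ccdc152, a gene on the opposite strand, shares 1193 bases of exon with the Sepp1 transcript in GENCODE. Reads from the 2 genes cannot be told apart in non-stranded libraries, and Ccdc152 was not found by that symbol in the authors' deposited table.

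The best-known receptor for Sepp1 is Lrp8, also called apolipoprotein E receptor 2, through which brain and testis take up the protein. Its log2 fold change in the authors' deposited table was -0.14 (adjusted p 0.121, SE 0.066), at a mean of 6199 normalized counts, and it was not called. Lrp2, or megalin, which takes up selenium proteins in the kidney, had a mean of only 14.8 in the authors' deposited table and a log2 fold change of 0.10 (adjusted p 0.942, SE 0.60). The related Lrp1 lay at -0.63 but was not called, with an adjusted p of 0.126 in the authors' deposited table. The SE of Lrp1 was 0.30, which is 5.12 times the median of the 200 genes nearest to it in mean. A fall was thus called for the ligand and for none of these 3 receptor genes. At their SEs, an estimated log2 change under 0.78 in size for Lrp1 or 1.54 for Lrp2 could not have been called. An estimate as large as that of Sepp1 was therefore out of reach of a call in Lrp1 and Lrp2. For Lrp8 the limit was 0.17. Whether the ligand and the receptors differ was not tested.

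Of the ER-resident members, Selm and Selt moved in opposite directions. Both encode thioredoxin-like proteins with the CxxU layout shown above, Selm in the ER lumen and Selt at the ER membrane. For Selm the authors' deposited table gave a mean of 2065 normalized counts and a log2 fold change of -0.35 (adjusted p 0.000189, SE 0.081). That is an AA147 level of 0.783 times vehicle, with a 95% interval from 0.702 to 0.874, or implied averages of 2316 in vehicle and 1815 in AA147. Selt had a mean of 2016 normalized counts and a log2 fold change of 0.18 (adjusted p 0.0455, SE 0.068) in the authors' deposited table. Its AA147 level was 1.13 times vehicle, with a 95% interval from 1.03 to 1.24, or implied averages of 1892 and 2140. The 95% intervals of the log2 fold changes were -0.51 to -0.19 for Selm and 0.04 to 0.31 for Selt. Whether the 2 genes differ was not tested. The Selt call lay just under the threshold. It was lost when fold changes were centred on the median of genes with a mean of at least 100, at an adjusted p of 0.0697, and when a trend on transcript length was subtracted, at 0.0778. It was also lost when p-values were adjusted over every gene with a p.

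The third gene with this layout is Sepw1, a small cytosolic selenoprotein known for its abundance in muscle and brain. With a mean of 637 normalized counts in the authors' deposited table, its log2 fold change was -0.09 (adjusted p 0.601, SE 0.10). Its 95% interval ran from -0.30 to 0.11, which leaves room for a modest change in either direction. With the trend on transcript length subtracted, it was -0.002. The 3 genes with the shared layout thus comprised 1 that fell, 1 that rose and 1 with no call. Among all genes with an adjusted p, 11.1% were called negative and 9.05% positive. Nothing about the layout is read from these 3 genes.

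Sepn1 and Selk are the other members of the ER membrane. Sepn1, whose loss causes a congenital myopathy and which acts on the calcium pumps of the ER, had the highest mean count of the 8, 2927 normalized counts in the authors' deposited table. Its log2 fold change there was -0.11 (adjusted p 0.330, SE 0.074), with a 95% interval from -0.25 to 0.04. Selk, which works with the acyltransferase Zdhhc6 in palmitoylation, had the lowest, 131 normalized counts, and had a log2 fold change of -0.16 (adjusted p 0.688, SE 0.22) in the authors' deposited table. At this SE, an estimated log2 change of Selk under 0.56 in size could not have been called. An estimate as large as that of Selm would thus not have been called. For Sepn1 that limit was 0.19.

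Of the synthesis factors among the 8 genes, Sephs2 fell and Secisbp2 was not called. Sephs2, the selenophosphate synthetase, fell with a log2 fold change of -0.21 (adjusted p 0.0252, SE 0.072) in the authors' deposited table, at a mean of 1904 normalized counts. This is an AA147 level of 0.866 times vehicle (95% interval 0.785 to 0.956), with implied averages of 2041 and 1767. Secisbp2, the SECIS-binding protein, had a mean of 1026 normalized counts and a log2 fold change of 0.09 (adjusted p 0.540, SE 0.086) in the authors' deposited table. It was not called, and its 95% interval ran from -0.08 to 0.26. With the trend on transcript length subtracted, its log2 fold change was 0.04.

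**Figure D3:**
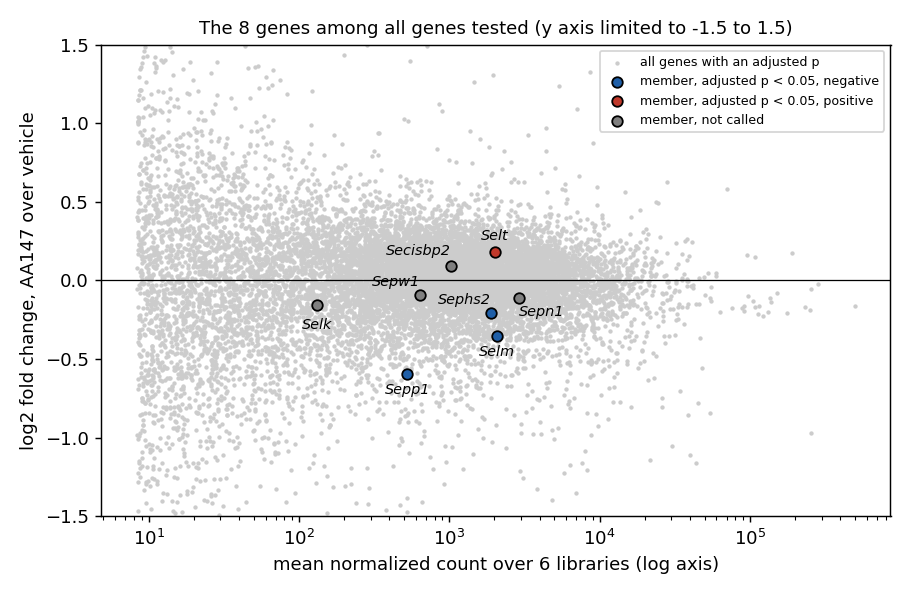
Log2 fold change (AA147 over vehicle) against the mean normalized count (log axis) for all genes with an adjusted p in the authors' deposited table (grey) and for the 8 genes (coloured by call). The y axis stops at 1.5 in both directions, which leaves out 140 genes. Sepp1 and Selm lie toward the lower edge of the cloud at their mean, and Selk has the lowest mean of the 8 genes.

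The precision of these values was ordinary for their abundance. The SE of each of the 8 genes was between 0.903 and 1.07 times the median SE of the 200 genes nearest to it in mean. Per kilobase of canonical transcript, the mean level was highest for Selm, at 2277 normalized counts per kilobase. Sephs2 at 875, Sepw1 at 865 and Sepn1 at 772 normalized counts per kilobase formed a middle group. Selt at 491 and Secisbp2 at 297 normalized counts per kilobase followed. The lowest levels were those of Sepp1 at 90.9 and Selk at 53.4 normalized counts per kilobase. Whether neighbours in this order differ beyond the spread of libraries cannot be said without values per library. The Sepp1 value rests on a canonical transcript of 5782 bases, of which 77.7% is 3′ untranslated region. That share was 83.2% for Selt and 79.9% for Selk. Each of these levels would be higher for a shorter transcript.

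Copies in the genome bear on 3 of the 8 genes. Selk had 8 further alignments of at least 200 bases and 90% identity in the GRCm39 genome, with an identity of up to 96.3%. Selt had 4, with up to 97.8% identity, and Sephs2 had 1 at 94.9%. How the authors treated reads that match several places is not given in the sources used here, so the levels and fold changes of these 3 genes are uncertain to that extent. Sepp1, Selm, Sepw1, Sepn1 and Secisbp2 had 0 such alignments. The exons of Selm share 32 bases with Smtn, the smoothelin gene on the opposite strand. Smtn had a mean of 5976 normalized counts and a log2 fold change of -0.69 (adjusted p 1.8e-26, SE 0.062) in the authors' deposited table. Its part in the Selm value was not tested. Opposite-strand genes also share exon bases with 3 other members, 958 bases of Sema4d and 78 of Gm61408 with Secisbp2, 792 of Gm44729 with Sephs2 and 238 of Gm56813 with Selt. These neighbours were not found by those symbols in the authors' deposited table. Their reads cannot be told apart from those of the members in non-stranded libraries. Selk, Sepn1 and Sepw1 had no exon overlap with another gene in GENCODE.

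The place of the selenocysteine codon among the exons also varied. In 5 genes the first TGA lay well before the last exon junction, by 470 bases in Selt, 357 in Sepp1, 243 in Sepw1, 216 in Sepn1 and 135 in Selm. In Selk it lay 5 bases before that junction, and Sephs2 has 1 exon and so no junction. Whether this place bears on the fold changes was not tested.

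Of 10 further selenoproteins outside the GPX and TXNRD families, 5 were in the authors' deposited table, and 2 were called, both negative, where 20.2% of all genes with an adjusted p were called and 11.1% were called negative. Vimp, also known as Selenos, is an ER membrane selenoprotein that binds the p97 ATPase during ER-associated degradation. It fell with a log2 fold change of -0.62 (adjusted p 1.49e-10, SE 0.090) at a mean of 1479 normalized counts in the authors' deposited table, a size close to that of Sepp1. Selo, a mitochondrial selenoprotein that transfers AMP to proteins, fell with a log2 fold change of -0.30 (adjusted p 0.0036, SE 0.084) in the authors' deposited table. Msrb1, a methionine sulfoxide reductase, at 0.19, 2700094K13Rik, the nucleolar Selenoh, at 0.17 and Ept1, a phospholipid enzyme, at -0.004 were not called in the authors' deposited table, with adjusted p from 0.103 to 0.985. Sep15, Selv, Dio1, Dio2 and Dio3 were looked up and not found by symbol in the authors' deposited table. Symbols such as Sep15 can be turned into dates by spreadsheets, and 23 names of the table are digits only, so Sep15 may be among these.

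Of 7 GPX and TXNRD genes that encode selenoproteins, 5 were in the authors' deposited table, and 1 rose and 1 fell. Gpx2 and Gpx3 were not found there. Txnrd1, the cytosolic thioredoxin reductase and a known NRF2 target, rose with a log2 fold change of 0.67 (adjusted p 5.15e-23, SE 0.064), while the mitochondrial Txnrd2 fell with one of -0.36 (adjusted p 0.00156, SE 0.094) in the authors' deposited table. Gpx1 at 0.09, Gpx4 at -0.17 and Txnrd3 at -0.11 were not called in the authors' deposited table, with adjusted p from 0.125 to 0.434. Over all selenoprotein genes of the 3 lists, 17 of 24 were in the authors' deposited table, of which 6 fell, 2 rose and 9 were not called, beside 11.1% negative and 9.05% positive calls among all genes with an adjusted p. Nothing particular to the family is read from this, because part of it was proposed with these values in view. Their median log2 fold change was -0.11.

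**Figure D4:**
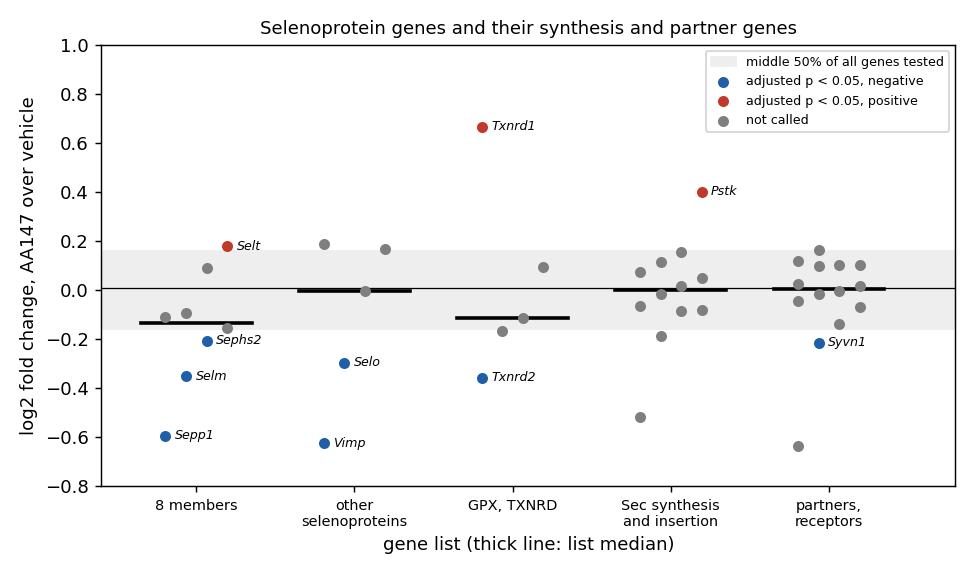
Log2 fold changes (AA147 over vehicle, y axis) in the authors' deposited table for the 8 genes, other selenoproteins, GPX and TXNRD selenoproteins, genes of selenocysteine (Sec) synthesis and insertion, and partner or receptor genes. Each point is 1 gene, coloured by call; thick lines are list medians, and the grey band holds the middle 50% of all genes with an adjusted p. Called genes are named, and most synthesis and partner genes lie inside the band.

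The list of other genes of selenocysteine synthesis and insertion held 12 genes. All 12 were in the authors' deposited table, where their log2 fold changes had a median of 0.0004. Among them 1 was called, where 20.2% of all genes with an adjusted p were called and 9.05% were called positive. The called gene was Pstk, the kinase that phosphorylates the serine on the selenocysteine tRNA. It rose with a log2 fold change of 0.40 (adjusted p 0.00316, SE 0.11) at a mean of 600 normalized counts in the authors' deposited table. In the authors' deposited table the neighbouring steps were not called, namely the synthase Sepsecs at 0.07 (adjusted p 0.753) and the elongation factor Eefsec at 0.12 (adjusted p 0.362). Sephs1, the paralog of Sephs2 that has no selenocysteine, lay at 0.02 (adjusted p 0.912, SE 0.068) in the authors' deposited table. Ncl, of the same list, lay at 0.15 there and just missed the threshold (adjusted p 0.0501, SE 0.060). The authors' deposited table placed Trnau1ap, which binds the tRNA, at -0.19 (adjusted p 0.116) and Scly, the lyase that recovers selenium from selenocysteine, at -0.52 (adjusted p 0.117, SE 0.24). Scly had a mean of 82.2 normalized counts, and an estimated log2 change under 0.62 in size could not have been called at its SE. With Sephs2 and Secisbp2 added, 14 factors comprised 1 that rose, 1 that fell and 12 without a call. Among all genes with an adjusted p, 9.05% were called positive and 11.1% negative.

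Partner proteins of the ER selenoproteins and the Sepp1 receptors made up a list of 14, all in the authors' deposited table, where their log2 fold changes had a median of 0.006. A single gene was called, where 20.2% of all genes with an adjusted p were called and 11.1% were called negative. It was Syvn1, the ubiquitin ligase HRD1 of ER-associated degradation, with a log2 fold change of -0.21 (adjusted p 0.0436, SE 0.081) in the authors' deposited table. Zdhhc6, the partner of Selk, lay at 0.16 (adjusted p 0.185, SE 0.087) in the authors' deposited table. Derl1 at -0.02, Derl2 at 0.10 and Vcp at 0.12, which bind Vimp, were not called in the authors' deposited table, with adjusted p from 0.236 to 0.920. The calcium pump Atp2a2, on which Sepn1 acts, lay at 0.02 (adjusted p 0.914, SE 0.063) in the authors' deposited table.

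The start sites of the 8 genes were searched for response elements of the pathways that AA147 is known to act on. The RefSeq windows of assembly GRCm38.p6 run from 250 bases before to 50 after each start, and gave 10 windows for the 8 genes, 3 of them for Sepp1. Both strands were searched for the ER stress elements ERSE and ERSE-II, the unfolded protein response element TGACGTGG and the antioxidant response core TGACNNNGC, some of which can overlap. These 4 motifs occur in 0.119%, 0.0365%, 0.676% and 12.4% of all 32851 windows. The only match was the antioxidant core in the Selk window, beginning 44 bases before the start, and Selk was not called. The other 9 windows do not hold these letters, which says nothing about other sites.

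The labelled cell type was checked against marker genes by their mean in the authors' deposited table. Of 6 neuronal markers, Tubb3 was listed, at 1199 normalized counts. The other 5, Rbfox3, Map2, Syp, Snap25 and Nefl, were looked up and not found in the authors' deposited table. All 4 mesenchymal markers were listed, with means up to 254004 for Col1a2.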

How the data were processed

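The 6 libraries were compared by the authors as AA147 against vehicle. The submitters' processing notes name DESeq2 and build mm9. The aligner, read counter, annotation and filters are not given in the sources used here. RNA was column-extracted and sequenced as non-stranded mRNA, per the labels' protocols. The authors deposited, per gene, a mean normalized count (a signal over all libraries), a log2 fold change with its SE, a score (fold change over SE), and p-values before and after adjustment. A Benjamini-Hochberg calculation over 13597 genes returned the deposited adjusted values.

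From these, 95% normal intervals, ratios and implied group averages (equal group sizes assumed) were computed. Depth per library is unknown, and the means sum to 30768012. No test between libraries could be run. The planned edgeR test was replaced by the authors' calls at an adjusted p under 0.05. Genes named are the 8 genes and 4 lists of related genes. These members and lists were chosen with earlier results of these data known. With 1 comparison, no gene could be matched to them by pattern. Smtn, Selenbp1 and Selenbp2 were named after their values were seen. Only the code for adjusting p-values was tested on simulated data, with fold changes drawn from the authors' SE. That check says nothing about the authors' calls or the sequence searches.

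Older symbols were matched to RefSeq synonyms. Transcript lengths, available for 95.1% of genes with a mean of at least 100, and TGA codons came from GENCODE M39 canonical transcripts (GRCm39). Copies were aligned with minimap2 2.31 in splice mode. No coordinates are given, because the builds differ. Promoter sequences matched for all 8 genes. A set of 23 digit-only names was not decoded. Python 3.11.15, pandas 2.3.3, SciPy 1.17.1 and matplotlib 3.10.9 were used.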

Additional observations from a re-analysis of the deposited data

How the results depend on the processing

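No paired analysis was possible because values per library were not to hand. The replicate block, leaving out each replicate and refits with other count models were not run for that reason. The count of 4 called genes became 2 at an adjusted p under 0.01 (Selm and Sepp1). Calls over all genes went from 2741 to 1818. The count was 1 with a Bonferroni adjustment (Sepp1), beside 774 over all genes. With a log2 fold change of 0.5 or more in size it was also 1 (Sepp1), beside 796 over all genes. Each of these settings is stricter by construction. The count was 4 among genes with a mean of at least 100, beside 2643 over all such genes. It was 3, without Selt, with p-values adjusted over every gene with a p, beside 2641 over all genes. After centring on the median of 0.01 it was 3, without Selt, beside 2708 over all genes. After subtracting a running median by transcript length it was again 3, without Selt, beside 2517 over all genes. That last setting was chosen for the count after the data were seen. Of 16 member values under the 2 shifts, by the median and by the length trend, 14 kept their direction and side of the threshold. Another 2 (both of Selt) were weaker and 0 reversed. With the length trend subtracted, Sepw1 moved from -0.09 to -0.002 and Secisbp2 from 0.09 to 0.04. Low counts limit Selk most.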

Other observations

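The selenium-binding protein genes Selenbp1 and Selenbp2, which encode no selenocysteine, were looked up after the data were seen. Selenbp1 fell with a log2 fold change of -2.59 (adjusted p 0.00568, SE 0.76) in the authors' deposited table, at a mean of only 11.4 normalized counts. Selenbp2 had a mean of 4.96 normalized counts, no adjusted p and a log2 fold change of -1.47 (SE 0.98) in the authors' deposited table. The 2 genes are close relatives, and how reads shared between them were counted is not given in the sources used here.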
